A study of Mus musculus with 117 samples.

Results

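The genes described are 10 mouse apolipoprotein genes, Apoa1, Apoa2, Apoa4, Apoa5, Apob, Apoc1, Apoc2, Apoc3, Apoe and Apoh, out of 21631 protein-coding genes on the autosomes and X. They were taken by name and not by a threshold on a measured value, but earlier results of these data were known. Each was read as its gene span in assembly GRCm38 (mm10) with 2 kb added on both sides. The 10 windows covered 633 of the 13168874 bins of 200 bp into which the deposited segmentations divide these chromosomes. Windows of neighbouring genes overlapped, so that Apoa1 and Apoc3 shared 7 bins and Apoc1 and Apoe shared 2.

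Chromatin immunoprecipitation sequencing (ChIP-seq) had been done on hepatocytes, the parenchymal cells of the liver, taken from female mice at 12 weeks of age. The 9 groups were the inbred laboratory strains C57BL/6J, DBA/2J, A/J, 129S1/SvImJ, NZO/HlLtJ and NOD/ShiLtJ and the inbred strains derived from wild mice WSB/EiJ, CAST/EiJ and PWK/PhJ, for which the labels name no treatment and no engineered allele. For every strain there were 13 libraries: H3K4me1, H3K4me3, H3K27ac and H3K27me3 in 3 mice each, and 1 input. One segmentation per strain was deposited, which gives each bin 1 of 14 chromatin states, so a strain is 1 value and mice within a strain cannot be compared. Which marks make up a state, and the sequencing depth, are not given in the sources used here. State numbers are therefore names with no meaning attached, and a lower number is not a stronger signal. All ± values are SDs over the 9 strains (n = 9), which measure the spread between strains.

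Apolipoproteins coat the lipid particles that carry triglyceride and cholesterol in plasma. Apob is the structural protein of very-low-density and low-density lipoproteins and stays with its particle for life, whereas the smaller ones exchange between particles. Apoa1 and Apoa2 are the main proteins of high-density lipoprotein. Apoe is a ligand for receptors of the LDL receptor family, Apoc2 activates lipoprotein lipase, Apoc3 inhibits triglyceride clearance and Apoa5 promotes it. Apoc1 is a small exchangeable apolipoprotein, and Apoa4 is made in intestine and, in mice, also in liver. Apoh, or beta-2-glycoprotein I, is a phospholipid-binding plasma protein. The liver is the main source of most of them.

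The genes lay at 5 loci. Apoa1 (9:46228630-46230469), Apoc3 (9:46233050-46235636), Apoa4 (9:46240844-46243458) and Apoa5 (9:46268608-46271921) form a cluster on chromosome 9. Apoc2 (7:19671579-19677941), Apoc1 (7:19689480-19692659) and Apoe (7:19696244-19701310) form a cluster on chromosome 7, in which Apoc4 overlaps the Apoc2 window. Apoa2 (1:171221564-171226379), Apob (12:7977629-8016839) and Apoh (11:108395297-108414396) stand apart from these. Part of a neighbouring gene also fell in the windows of Apoa2 (Tomm40l), Apoa5 (Zpr1), Apoe (Tomm40) and Apoc2 (the read-through gene Gm44805).

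Sequence upstream of the start is shown for 8 genes because the state of the bin at the start separated them into 2 sets. The first 6 sequences lead into a start whose bin was in state 3 in all 9 strains, with no state 3 in the bin before it in any strain. The last 2, Apoa4 and Apoc2, lead into a start whose bin was in state 1 in all 9 strains. Each run is the 140 bases that end just before the start, 5′ to 3′ on the gene's strand, from RefSeq, assembly GRCm38.p6. Capitals mark a match, on either strand, to any of the 7 motifs searched: the TATA box, TATAAA; the CCAAT box; the nuclear receptor half-site, AGGTCA; a form of the HNF4 site, CAAAGTCCA; a form of the FOXA site, TGTTTAC; the GC box, GGGCGG; and a form of the C/EBP site, TTNNGNAA.
Apoa1 (chr9:46228490-46228629, plus strand): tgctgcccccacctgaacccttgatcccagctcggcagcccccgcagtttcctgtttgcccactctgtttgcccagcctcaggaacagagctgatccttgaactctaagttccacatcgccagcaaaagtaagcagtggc
Apoa2 (chr1:171224914-171225053, plus strand): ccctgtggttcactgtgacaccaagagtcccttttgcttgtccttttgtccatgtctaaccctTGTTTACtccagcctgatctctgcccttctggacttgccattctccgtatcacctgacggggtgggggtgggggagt
Apoa5 (chr9:46268468-46268607, plus strand): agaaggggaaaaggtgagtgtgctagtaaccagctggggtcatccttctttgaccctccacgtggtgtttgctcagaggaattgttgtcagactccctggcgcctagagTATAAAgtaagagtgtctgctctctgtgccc
Apoe (chr7:19699189-19699328, minus strand): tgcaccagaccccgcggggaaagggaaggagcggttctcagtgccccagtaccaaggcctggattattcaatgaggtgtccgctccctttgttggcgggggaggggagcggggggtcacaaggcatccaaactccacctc
Apob (chr12:7977537-7977676, plus strand): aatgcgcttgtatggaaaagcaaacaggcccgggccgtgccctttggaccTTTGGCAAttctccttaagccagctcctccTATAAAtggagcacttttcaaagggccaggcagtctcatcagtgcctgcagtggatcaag
Apoh (chr11:108395157-108395296, plus strand): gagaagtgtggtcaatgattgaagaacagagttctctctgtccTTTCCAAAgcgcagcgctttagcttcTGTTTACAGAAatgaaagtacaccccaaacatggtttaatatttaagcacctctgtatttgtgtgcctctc
Apoa4 (chr9:46240704-46240843, plus strand): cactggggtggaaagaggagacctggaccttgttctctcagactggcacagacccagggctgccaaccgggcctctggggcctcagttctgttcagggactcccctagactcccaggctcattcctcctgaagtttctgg
Apoc2 (chr7:19677942-19678081, minus strand): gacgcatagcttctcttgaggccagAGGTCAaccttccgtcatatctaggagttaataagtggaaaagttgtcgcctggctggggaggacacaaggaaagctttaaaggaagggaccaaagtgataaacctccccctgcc

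RefSeq's promoter table held 12 starts for 8 of the 10 genes, and Apoc1 and Apoc3 were not in it. TATAAA began at position -31 from the start of Apoa5 and at -60 from that of Apob. It was also in the window of the Apoe start at 19698621, which is not shown. The window of the second Apoa5 start holds the same site as the first. This made 4 of the 12 starts, with that site counted at both, and the genes were Apoa5, Apob and Apoe alone. TATAAA was in 7.01% of the same windows over all 21045 starts. TGTTTAC was in the windows of Apoh and Apoa2 and in 1.35% of all windows. TTNNGNAA was in those of Apob, Apoh, where it overlapped TGTTTAC, and the upstream start of Apoa2 (not shown), and in 18.8% of all. AGGTCA, the half-site of many nuclear receptors, was in that of Apoc2 and in 7.13% of all. GGGCGG was in 37.7% of all windows and in none of the 12. CCAAT was in 25.6% of all and, among the 12, in that of the same upstream start of Apoa2. CAAAGTCCA was also in none of the 12 and in 0.266% of all. A match is a description of the letters in these windows only.

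Across the genome, state 14 took 70.7% to 74.1% of the bins in a strain and state 1 took 2.14% to 2.64%. The labelled cell type was checked on the state 1 share of 8 marker genes per cell type. All 8 hepatocyte markers, such as Alb and Ttr, were called above the mean of all genes, with a median share of 54.1%. For 4 other cell types the calls were 1 of 8 for Kupffer cells and leukocytes (Cd68), 1 of 8 for endothelium (Lyve1), 0 of 8 for stellate cells and 2 of 8 for enterocytes (Fabp2 and Cdx2), with medians from 0% to 0.325%. Over all genes 25.7% were called, with a median share of 2.36%, so the enterocyte count was near that of all genes. The share of bins outside state 14 separated the lists less. There the calls higher were 8 of 8 for hepatocytes, 4 for Kupffer cells and leukocytes, 3 for endothelium, 3 for stellate cells and 2 for enterocytes. Of all genes 42% were called higher on that share. Clec4f, Kdr, Lrat and Vil1 had no bin in state 1 in any strain. Enterocytes were included because they also make apolipoproteins.

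State 14 was absent from 9 of the 10 apolipoprotein windows. In Apoa1, Apoa2, Apoa4, Apoa5, Apob, Apoc1, Apoc2, Apoc3 and Apoe all bins were outside state 14 in every strain (100% ± 0), against a median of 37.8% ± 3.17 over all protein-coding genes. A window free of state 14 in all strains was found for 5.67% of all genes. Apoh was the exception, at 77.9% ± 3.73 outside state 14. Its state 14 share was lowest in 129S1/SvImJ and PWK/PhJ, both 18.1%, had a median of 22.4% and was highest in CAST/EiJ, 28.4%. All 10 genes were called above the median of all genes (exact sign-flip test, two-sided, Benjamini-Hochberg adjusted p = 0.00568; higher in 9 of 9 strains), a call that 42% of all genes received. With 9 strains the smallest unadjusted p is 0.0039, so that members with very different shares carry the same p.

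State 1 was the most frequent state in the windows. Counting each bin once, it covered 48.9% ± 3.32 of the 633 bins, from 44.9% in A/J to 55.0% in 129S1/SvImJ. State 3 followed with 13.2% ± 1.32, state 2 with 11.1% ± 2.59, state 6 with 9.37% ± 2.13, state 8 with 8.09% ± 3.05 and state 4 with 4.79% ± 1.38. States 5, 7, 10, 11, 12 and 13 were found in no bin of the 10 windows in any strain. Counting start bins alone, state 13 held 0% of the 12 starts of these genes and 11.9% of all gene starts. States 5, 7, 10, 11 and 12 are rare at starts in general, with 0.486% (state 7) to 2.37% (state 10) of all gene starts each. The 12 starts are few and not independent, and the absence of these states was not tested.

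**Figure D1:**
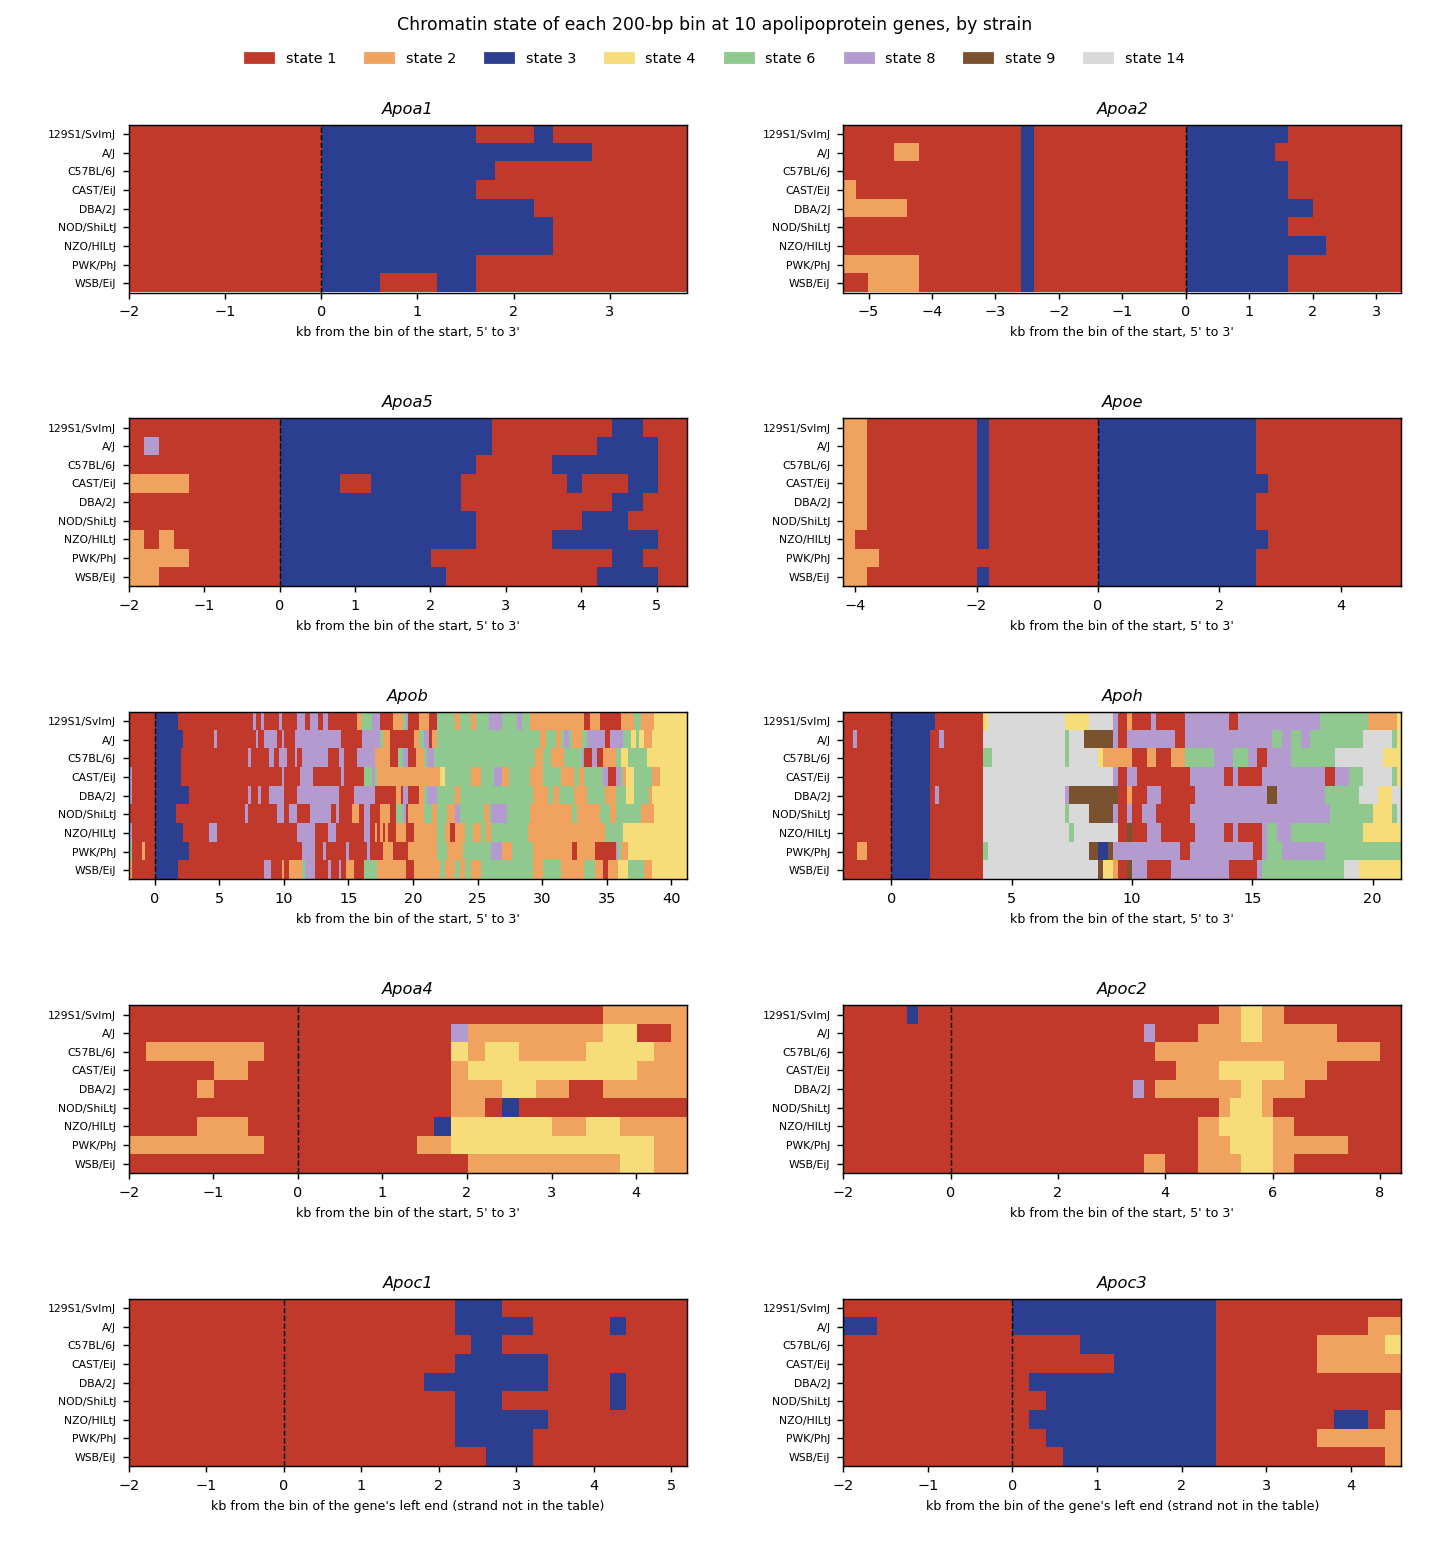
State of each 200-bp bin (colours) in the padded windows of the 10 genes, with 1 row per strain and distance in kb on the x axis; the dashed line marks the bin of the start or, for Apoc1 and Apoc3, of the gene's left end, and Apoa2 and Apoe are drawn from the starts at 171225054 and 19699188. State 3 (dark blue) begins at the line in the upper 6 maps in all 9 strains, and is absent there in Apoa4 and Apoc2.

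By gene, the share of the window in state 1 ran from 86.4% ± 5.97 in Apoc1 to 27.8% ± 5.81 in Apoh. Between them stood Apoc2 (76.5% ± 9.26), Apoa2 (74.0% ± 6.13), Apoa1 (66.3% ± 9.41), Apoe (65.0% ± 0.725), Apoc3 (62.3% ± 6.62), Apoa4 (57.9% ± 20.8), Apoa5 (52.9% ± 6.64) and Apob (34.5% ± 4.81). The steps from Apoc2 to Apoa5 were each smaller than the larger SD of the pair. Both genes of a pair were read in the same 9 strains and differences within strains were not tested. A step set against an SD is therefore no test of separation. The steps from Apoc1 to Apoc2, from Apoa5 to Apob and from Apob to Apoh were larger than the SD of either gene. Apob and Apoh have the longest windows, 216 and 116 bins, against 29 to 52 for the others, so the padding and the start make up less of them. All 10 were called above the mean of all genes, 8.76% ± 0.565, in 9 of 9 strains (exact sign-flip test, adjusted p = 0.00462), as were 25.7% of all genes, while 66.4% were called below it. Centred on the median of all genes instead of the mean, all 10 were again called higher, as were 46.6% of all genes, with 45.6% lower. Without the padding Apoa1 lost its call, at 0.04 points above the mean of all genes (adjusted p = 1).

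The spread between strains in state 1 differed from gene to gene. Apoe had 65.2% of its window in state 1 in every strain but CAST/EiJ, where it had 63.0%. Apoa4 had the widest spread, with 27.3% in PWK/PhJ, 36.4% in C57BL/6J, a median of 60.6%, 84.8% in 129S1/SvImJ and 90.9% in NOD/ShiLtJ. Apoc2 ranged from 59.6% in C57BL/6J over a median of 73.1% to 90.4% in NOD/ShiLtJ. In Apoa1 the lowest value was 51.7% in A/J, the median 68.97% and the highest 82.8% in WSB/EiJ. For Apob the range was 28.7% in DBA/2J to 42.1% in PWK/PhJ, and no strain reached the lowest value of Apoa5, 40.5% in NZO/HlLtJ, except 129S1/SvImJ (41.7%) and PWK/PhJ. No strain was lowest or highest in all genes.

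**Figure D2:**
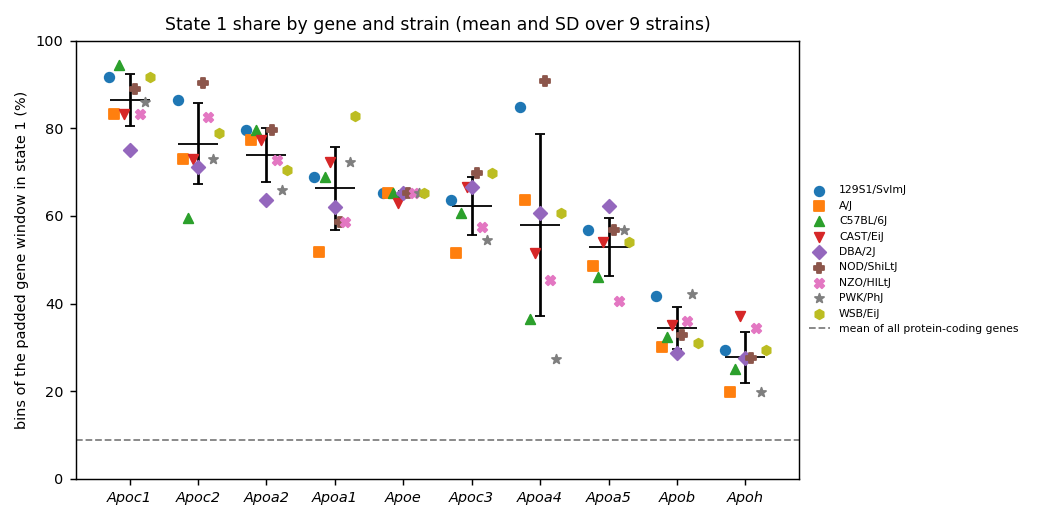
Percent of the bins of each padded gene window in state 1, with 1 point per strain, the mean and SD over 9 strains in black, and the mean of all protein-coding genes as a dashed line at 8.76%. Every point lies above the dashed line; the points of Apoe nearly coincide and those of Apoa4 spread from 27.3% to 90.9%.

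State 3 was concentrated at the starts of most of these genes. Within 1 kb of the start its share exceeded that in the rest of the window by 48.3 points ± 1.88 in Apoe, 47.4 ± 0.845 in Apob, 46.9 ± 0.667 in Apoh, 21.5 ± 10.9 in Apoa1 and 15.7 ± 5.15 in Apoa2. With both ends of the gene used in place of the start, it did so by 18.2 points ± 8.29 in Apoc1 and 9.36 ± 6.90 in Apoc3. These 7 of 10 genes were called (exact sign-flip test, adjusted p = 0.00932, higher in 9 of 9 strains), and so were 43.2% of all genes, with 2.86% called lower. Apoa5, at 7.74 points ± 9.80, was higher in 7 of 9 strains and not called (adjusted p = 0.107). Apoc2, at 1.11 points, and Apoa4, at -0.97 points, had next to no state 3 anywhere. Within 500 bp in place of 1 kb the difference at Apoc3 turned to -11.4 points (adjusted p = 0.034), Apoc1 lost its call at 4.27 points (adjusted p = 0.69) and Apoa5 gained one at 19.4 points (adjusted p = 0.00936), which made 6 calls. Of all genes 42.55% were called higher and 3.40% lower within 500 bp.

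The bin that holds the start was in state 3 in all 9 strains at 9 of the 12 starts, against 31.3% of all starts. The other 3, those of Apoa4, Apoc2 and the upstream start of Apoa2 at 171221564, were in state 1 in all 9 strains. Of the 9 starts in state 3, 7 had no state 3 in the bin before in any strain, which was so for 27.1% of all starts in state 3 in all strains. These 7 belong to 6 genes, Apoa1, Apoa2, Apoa5, Apob, Apoe and Apoh. The remaining 2 are starts of Apoe that lie downstream of its start at 19699188, inside the same block of state 3. Averaged over the 12 starts and 9 strains, state 3 went from 16.7% in the bin before the start to 75% at the start and stood at 74.1% 1.4 kb downstream. Over all starts in state 3 in every strain it was 60.6% in the bin before and 4.82% at 1.4 kb. That set leaves out starts in state 1, of which the 12 include 3. The 12 starts are also not independent, since the 2 of Apoa5 lie in the same bin and the 3 of Apoe in the same block. The 16.7% before the start comes from the 2 downstream starts of Apoe. This edge and the length below were examined after the maps had been seen and are given without a test.

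**Figure D3:**
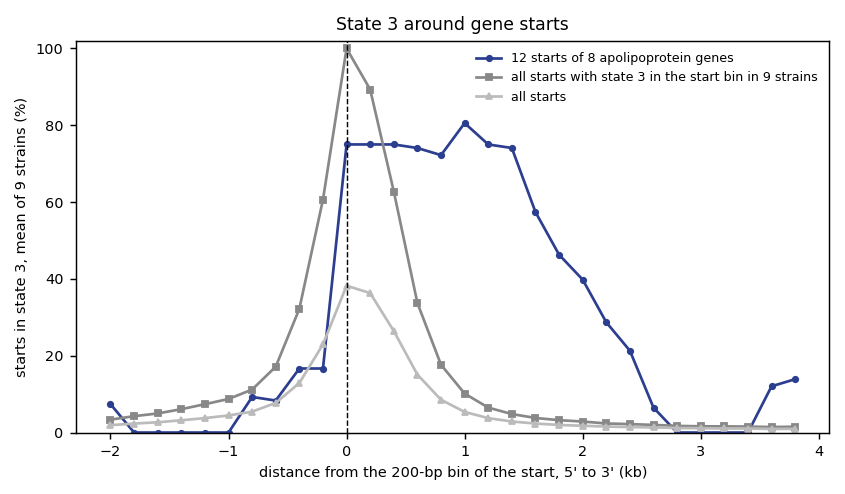
Percent of starts in state 3, mean of 9 strains, in 200-bp bins from 2 kb before to 3.8 kb after the start, for the 12 starts of 8 apolipoprotein genes (blue), for all starts with state 3 in the start bin in every strain (dark grey) and for all 21045 starts (light grey). The grey curves peak at the start and fall to both sides, and the blue curve steps up at the start to 75% and stays above 70% until 1.4 kb downstream.

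State 3 extended far into these 6 genes. Among all 6586 starts in state 3 in every strain, the unbroken run of state 3 from the start downstream had a median of 600 bp, and 3.01% had a mean of 1600 bp or more. All 6 genes were above that length, but it lies just below the shortest mean of the 6, 1622 bp in Apoh, so this count carries no weight. Without a cut, 97.2% of these starts had a shorter mean run than Apoh and 99.6% a shorter one than Apoe. The 6586 starts include those with state 3 in the bin before, and Apoe was read from its start with the longest run. In Apoe, the receptor ligand, the run was 2644 bp ± 88.2, with 2600 bp in 7 strains and 2800 bp in CAST/EiJ and NZO/HlLtJ. Its upstream edge, at 19699200, is the same in all 9 strains by the way the 6 genes were picked out. Apoe's own span ends at 19696244, so the run covered nearly all of the gene below its start at 19699188. In Apoh it was 1622 bp ± 66.7, with 1600 bp in all strains but 129S1/SvImJ (1800 bp). These 2 genes had the smallest spread.

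In Apoa2, the second protein of high-density lipoprotein, the run was 1689 bp ± 247. It began at 171225001 in all 9 strains, again by the way the genes were picked out. It measured 1600 bp in 6 of the strains, 1400 bp in A/J, 2000 bp in DBA/2J and 2200 bp in NZO/HlLtJ. In Apob it was 2089 bp ± 348, from 1600 bp in NOD/ShiLtJ over a median of 2000 bp to 2600 bp in DBA/2J and PWK/PhJ. These runs end within the gene in Apob and at or just past its end in Apoa2.

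Apoa1 and Apoa5 varied more. In Apoa1 the run was 1889 bp ± 649, with 600 bp in WSB/EiJ, 1600 bp in 129S1/SvImJ, CAST/EiJ and PWK/PhJ, 1800 bp in C57BL/6J, 2200 bp in DBA/2J, 2400 bp in NOD/ShiLtJ and NZO/HlLtJ, and 2800 bp in A/J. In Apoa5 it was 2311 bp ± 625, with 800 bp in CAST/EiJ and 2000 bp to 2800 bp in the other 8 strains. In both WSB/EiJ at Apoa1 and CAST/EiJ at Apoa5 the run was broken by bins in state 1 and went on behind them. The upstream edge of these runs is set by how the 6 genes were picked out. The downstream edge was the same in all 9 strains in none of the 6 genes and at 23.7% of all starts in state 3.

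**Figure D4:**
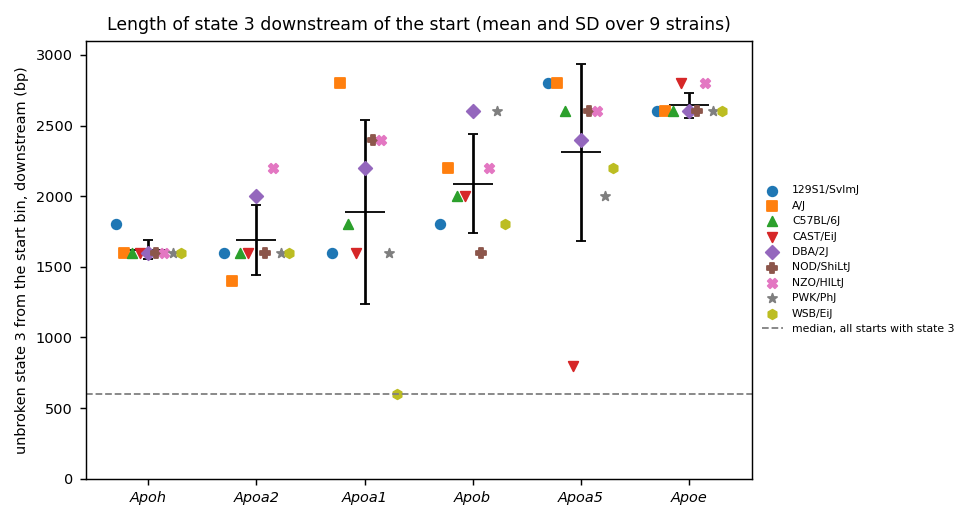
Length in bp of the unbroken run of state 3 from the start bin downstream in the 6 genes with no state 3 before the start, with 1 point per strain, the mean and SD over 9 strains in black, and the median of all starts in state 3 as a dashed line at 600 bp. All points but that of WSB/EiJ at Apoa1, which is on the line, lie above it, and Apoh and Apoe vary least.

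Apoc1 and Apoc3 also carried a block of state 3, in all 9 strains. In Apoc3 it ended on its right at 46235400 in every strain, began between 46233001 and 46234201 and was 1200 to 2400 bp long. In Apoc1 it was 400 to 1600 bp long and lay between 19691201 and 19692800, near the right end of the gene. Since the promoter table holds no start for these genes, which edge faces the start is not stated.

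These starts had few CpG dinucleotides for starts in state 3. In the table's 300 bases around the start, most of them upstream, there were 3 in Apoa2, 4 in Apoa1 and in Apoa5, 5 in Apoh, 9 in Apob and 10 in Apoe. The median was 20 over all starts with state 3 from the start bin on and none before, and 29 over starts with state 3 in the bin before as well. All 6 genes were below both medians. Over all starts, in any state, the median was 13. Apoe and Apob were closer to it, with 42.7% and 40.5% of all starts having fewer. The Apoe starts at 19698621 and 19698398, also in state 3, had 12 and 11. Of the genes whose start was in state 1, Apoa4 had 1 and Apoc2 had 7, which lies within the range of the 6.

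The longer genes changed state along their length. In Apob, state 1 took 71.1% ± 6.79 and state 3 20.9% ± 3.48 of the first 10 kb from the start. From 10 to 20 kb state 1 still had the highest mean, at 49.6% ± 11.4, with state 8 at 29.8% ± 15.8. From 20 to 30 kb state 6 had the highest mean, 58.4% ± 15.7, and state 1 was down to 2.44% ± 3.28. From 30 kb to the end state 2 (40.1% ± 16.5), state 6 (29.95% ± 18.9) and state 4 (16.9% ± 9.15) shared most bins. The 2 kb past the end was in state 4 in every bin and strain. These are means over strains, and single strains departed from them. State 8 at 10 to 20 kb was 12% in WSB/EiJ and 52% in DBA/2J, where it exceeded state 1. At 20 to 30 kb NZO/HlLtJ had more of state 2, 52%, than of state 6, 44%. From 30 kb on, state 6 was 2.17% in PWK/PhJ and 54.3% in DBA/2J.

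In Apoh, state 3 and state 1 took the first part, and a stretch of state 14 followed in all 9 strains. It began between 108399001 and 108399401, ended between 108402400 and 108404400 and was 3000 to 5400 bp long, with a median of 3400 bp. Further bins of state 14 lay outside this stretch in all strains but PWK/PhJ, shortly behind it or around the end of the gene. Behind it, at 10 to 15 kb from the start, state 8 had 57.3% ± 24.1 and state 1 had 36.4% ± 20.1. From 15 kb to the end state 8 had 46.6% ± 25.7 and state 6 had 43.4% ± 24.3. There state 8 was 4.76% in WSB/EiJ and 76.2% in CAST/EiJ, and state 6 was 80.95% and 4.76% in the same strains.

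In Apoa4 the strains parted behind the middle of the gene. Around its start all strains had state 1. In the 16 bins from the middle of its span to the end of the window, state 1 had 0% in PWK/PhJ, a median of 18.8% and 81.2% in NOD/ShiLtJ. State 4 ranged from 0% in 129S1/SvImJ over a median of 12.5% to 75% in PWK/PhJ, and state 2 from 12.5% in NOD/ShiLtJ to 68.8% in WSB/EiJ. The same strains were at the extremes of the stretch between Apoc3 and Apoa4, where state 1 was 26.9% in PWK/PhJ and 100% in NOD/ShiLtJ. These 2 stretches are adjacent to one gene and are not independent observations.

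Within the clusters, the stretches between neighbouring members were also mostly in state 1, except between Apoa4 and Apoa5. The stretch between Apoc2 and Apoc1 is not free of genes, since Apoc4 reaches into it. Its shares of states 1 and 3 therefore include bins of Apoc4. On chromosome 7 state 1 held 87.5% ± 2.39 between Apoc2 and Apoc1 and 96.3% ± 3.93 between Apoc1 and Apoe, and state 3 held most of the rest, 12.3% ± 2.32 and 3.70% ± 3.93. On chromosome 9 state 1 held 88.0% ± 13.9 between Apoa1 and Apoc3 and 67.5% ± 24.6 between Apoc3 and Apoa4. The longer stretch between Apoa4 and Apoa5 was split between state 4, 40.8% ± 4.16, state 1, 38.1% ± 8.59, and state 2, 20.2% ± 7.78. The unbroken stretch outside state 14 that holds the chromosome 9 cluster was 101 kb ± 4.55, from 94 to 105.6 kb. That of the chromosome 7 cluster was 50.2 kb ± 6.38, that of Apoa2 66.3 kb ± 20.2 and that of Apob 49.4 kb ± 1.48. At Apoh the stretch that holds the start was 7.73 kb ± 0.557.

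The genes differed in how alike the strains were. A bin differed between 2 strains, on average over the 36 pairs, in 2.29% of the Apoe window, 8.49% of Apoc1, 9.47% of Apoa2, 11.49% of Apoa1, 17.3% of Apoc3, 18.3% of Apoc2, 18.99% of Apoa5, 33.0% of Apoh, 37.1% of Apob and 39.7% of Apoa4. The median over the 10 genes was 17.8% and that over all protein-coding genes 19.6%. Of all genes 6.22% had a lower value than Apoe, 92.3% a lower value than Apoa4 and 89.3% a lower value than Apob. Pairs share strains, so no test was made. When a bin counted as alike if the same state lay within 1 bin, the medians were 10.4% for the members and 14.4% for all genes. With 5 kb of padding the order of the medians turned, to 22.2% for the members and 19.98% for all genes.

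**Figure D5:**
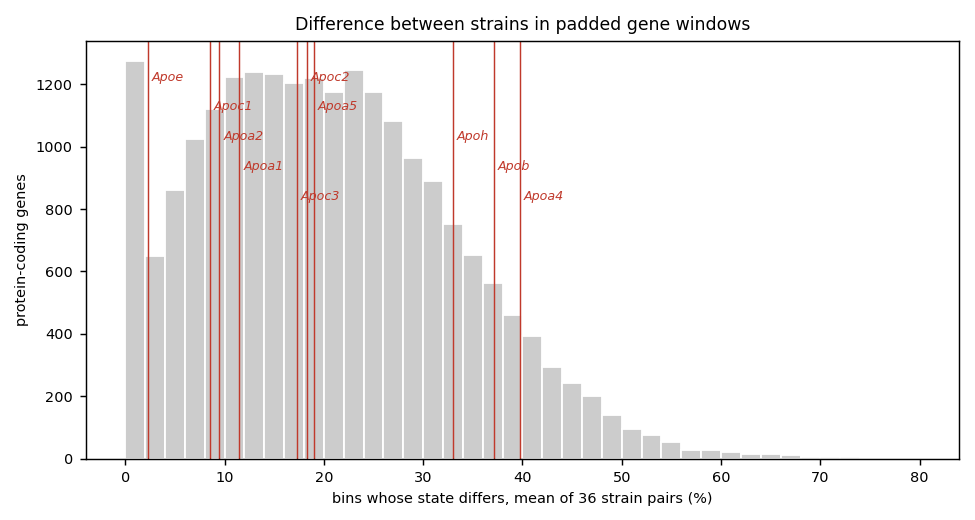
Number of protein-coding genes (bars, 2-point classes) by the percent of bins in the padded window whose state differs between 2 strains, mean of 36 pairs, with the 10 apolipoprotein genes as red lines. Apoe lies at 2.29%, near the lower end, Apoh, Apob and Apoa4 lie between 33.0% and 39.7%, and the other 6 lie between 8.49% and 18.99%.

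Of the 633 bins, 292 (46.1%) had 1 state in all 9 strains, 219 had 2 states and 122 had 3 or more. One state in all strains was found in 91.3% of the bins of Apoe and in 26.9% of those of Apob and 27.3% of those of Apoa4. All 24 bins of the unpadded Apoa2 span had the same state in all 9 strains. That was so for 1610 of all protein-coding genes (7.44%), 260 of which (1.20%) also had no state 14. The kind of difference depended on the gene. In Apoa1 and Apoc1 every difference between strains was an exchange of states 1 and 3, and in Apoa5 70.4% were. In Apoa2 and Apoc2 exchanges of states 1 and 2 made up 70.7% and 70.2%. In Apob exchanges of states 2 and 6 led with 28.7%, followed by states 1 and 8 with 24.03%.

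A bin in which 1 strain departed from a state shared by the other 8 was found 70 times, from 5 times in DBA/2J, NOD/ShiLtJ and NZO/HlLtJ to 12 times in C57BL/6J. In C57BL/6J 5 of these lay in Apoc2 and 5 in Apoh. Measured as the median over the 10 genes of the difference from the other 8 strains, CAST/EiJ was the most distant strain, at 21.3%, followed by C57BL/6J at 19.2%, and the others stood between 14.6% and 16.8%. Over all genes the most distant strain was PWK/PhJ, at 22.2%, which had 16.0% at the members. This difference in order was not tested.

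Strains derived from wild mice, CAST/EiJ, PWK/PhJ and WSB/EiJ, were compared with the other 6, the laboratory strains. Apoa1 had more of its window in state 1 in the wild-derived strains, 75.9% ± 5.97 (SD, n = 3), than in the laboratory strains, 61.5% ± 6.69 (SD, n = 6), and the groups did not overlap. Of all genes, 0.633% had groups that did not overlap in this direction and 1.69% in the other, and 1.66% were higher and 3.25% lower at an unadjusted p under 0.05. The difference of 14.4 points had an exact two-sided permutation p of 0.0238 and did not pass adjustment (adjusted p = 0.864). Without WSB/EiJ it was 10.9 points (exact permutation p = 0.107). The other 9 genes had unadjusted p from 0.274 to 0.869, with means that differed by -17.2 points in Apoa4 and by at most 4.17 points in either direction elsewhere. No gene of the genome passed adjustment by this exact test, for which the smallest p is 0.0119, while 358 genes were higher and 702 lower at an unadjusted p under 0.05. Without padding Apoa5 also had an unadjusted p under 0.05, being higher by 16.7 points in wild-derived strains (exact permutation p = 0.0119), and with 5 kb of padding so did Apoa2, lower by a difference of -18.2 points (exact permutation p = 0.0238).

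Other genes of lipoprotein metabolism were described with the same measures, from a list of 37 in 6 roles. State 1 was called higher than the mean of all genes in 32 of them and lower in 5, against 25.7% higher and 66.4% lower over all genes, with a median share of 29.6%, against 63.6% for the 10 members and 2.36% for all genes. By role the calls higher were 5 of 5 for assembly and secretion, 5 of 6 for plasma enzymes and transfer, 3 of 4 for lipase regulators, 5 of 6 for receptors and uptake, 3 of 4 for sterol and lipid transporters and 11 of 12 for transcription factors. Angptl4, an inhibitor of lipoprotein lipase, had the highest share of the list, 76.3% ± 2.74. The 5 called lower were Lpl, lipoprotein lipase itself (0.512% ± 1.53), Gpihbp1, which anchors that lipase to capillary endothelium (0%), Nr1h5 (0%), the sterol transporter Abcg1 (2.21% ± 0.871) and the VLDL receptor gene Vldlr (5.69% ± 1.11). Outside state 14, 31 of the 37 were called higher and 4, Lpl, Vldlr, Abcg1 and Nr1h5, lower, against 42% and 41.5% of all genes. State 3 at the start was called in 32, against 43.2% of all genes.

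Of 5 other apolipoprotein genes, 4 were called higher in state 1. These were Apoc4, at 81.1% ± 3.58 in the chromosome 7 cluster, Apom, at 75.2% ± 3.33, Apon, at 71.3% ± 9.75, and Apof, at 48.1% ± 4.66. Apod had no bin in state 1 in any strain and 3.74% ± 3.48 of its window outside state 14. Apod is expressed mainly outside the liver and belongs, with Apom, to the lipocalin family. Apom had no state 3 within 1 kb of its start in any strain, as in Apoa4.

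Long runs of state 3 from the start were also seen in other liver genes. Among the 20 pathway genes with state 3 in the start bin in all 9 strains the mean length had a median of 1111 bp and ran from 400 bp in Mttp, which loads lipid onto Apob, to 2844 bp in Hnf4a. Among the hepatocyte markers 3 genes had such a start, with 1978 bp in Alb, 2044 bp in Fgb and 2600 bp in Ahsg. The 6 apolipoprotein genes had a median of 1989 bp and a range of 1622 to 2644 bp, which overlaps with both. Mttp, Hnf4a, Alb, Fgb and Ahsg were singled out after their values had been seen.

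For each member, the gene elsewhere in the genome with the most similar shares of the 14 states over the 9 strains was found by the mean absolute difference of the 126 shares. These were Foxa2 for Apoa1 (0.86 points), Rdh7 for Apoa2 (0.897), Fcer1g for Apoa4 (2.2), Irf2bp2 for Apoa5 (0.981), Ubqln1 for Apob (2.62), Tmem150a for Apoc1 (0.718), Tmem86b for Apoc2 (1.62), Pim3 for Apoc3 (1.02), Gpt for Apoe (0.761) and Ndufa4 for Apoh (2.35). The median distance to all genes was 9.47 points for Apoh and 12.5 to 13.8 points for the other 9. Distances were smallest for the members whose windows were mostly in states 1 and 3. Genes near a member were left out for that member alone and could be chosen for another. Fcer1g, the match for Apoa4, is on chromosome 1, as is Apoa2. The measure ignores where in the window a state lies, and the strains share 1 set of states.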

How the data were processed

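ChIP-seq libraries of 4 histone marks and input from hepatocytes of 9 strains underlie the files. What the authors deposited is 1 segmentation per strain, whose values are state numbers 1 to 14, a category and neither a count nor a score. The submitters' processing notes name build mm10 and the tools FastQC 0.11.5 and MACS 1.4.2, without their role; the aligner, the segmentation tool and the read depth are not given in the sources used here, so no counting error can be given. A file that joins all strains repeated the strain files and was not used.

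Segments were written as 200-bp bins. Gene spans came from a RefSeq table and starts from a RefSeq promoter table, both of assembly GRCm38.p6; for genes with no start there, such as Apoc1 and Apoc3, both gene ends were used. Each gene's shares of states in the span with 2 kb on each side were tested over 21631 protein-coding genes: against all genes and between start and rest by an exact two-sided sign-flip test over 9 strains (512 patterns), and between 3 wild-derived and 6 other strains by exact permutation (84 splits). P-values were adjusted by the Benjamini-Hochberg method over all genes at 0.05. Strains with common ancestors are not fully independent values. That 3 strains are wild-derived is background knowledge and not a label. The scripts were tested on simulated data.

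The members and lists were chosen with earlier results of these data known. Genes named beyond the members are the listed genes with the highest and lowest state 1 shares, those a count of 5 or fewer singles out, and the nearest gene by state shares over 100 kb away with at least 20 bins. The result for bile duct markers is not reported here. Alternatives were other padding, other start windows, other centring, autosomes alone, states 13 and 14 joined, bins of other genes or shared bins left out, a match within 1 bin, and each strain left out. Leaving strains out of the wild-derived comparison was added after the data had been seen. Scripts ran in Python 3.11.15 with scipy 1.17.1, pandas 2.3.3 and numpy 2.4.6; matplotlib 3.10.9 drew the figures.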

Additional observations from a re-analysis of the deposited data

Results flagged for a closer look

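In 7 of 42 sets of 9 strain values, 1 strain stood far from the other 8 by Dixon's test. For continuous values chance alone flags about 1 in 20 sets. These shares move in steps of 1 bin with many ties, and sets from the same window overlap, so that rate does not apply to them and no chance number is given. Apoc2 had state 3 in 1.92% of its window in 129S1/SvImJ and in 0% in the other 8 strains. Its difference from the other strains was 27.4% in C57BL/6J, next to 18.8% in the nearest strain. Apoe had 63.0% of its window in state 1 in CAST/EiJ and 65.2% in all others. It had 28.3% in state 3 in PWK/PhJ, where a single bin of state 3 that lies 2 kb upstream of the start in the other 8 strains was in state 1. Apoh had 8.62% in state 3 in PWK/PhJ, next to 7.76%. The run of state 3 from the start of Apoa5 was 800 bp in CAST/EiJ, next to 2000 bp, and that from the start of Apoh was 1800 bp in 129S1/SvImJ, against 1600 bp in all others. Several of these departures are 1 or 2 bins in size, and with 1 segmentation per strain none could be checked against a second one.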

How the results depend on the processing

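Over all alternatives, 624 values were classed as the same, 10 as moved, 1 as reversed, 1 as stronger and 2 as weaker. A gene's value was the same when it kept its side of the threshold. A change of direction was not counted where neither setting passed adjustment. That holds for every gene in the wild-derived comparison, so the class says nothing about it. Counts of called genes were judged by a fixed ratio, and differences between strains by the spread between strains. With each strain left out, all 10 genes stayed called in state 1 and outside state 14, and 7 stayed called in state 3 at the start. These calls were higher in 9 of 9 strains, so leaving 1 out keeps every sign and fixes the unadjusted p. For them this setting is therefore no check of robustness. Of all genes, 41.001% to 41.931% were then called higher outside state 14 and 25.015% to 25.297% in state 1. For state 3 at the start it was 41.986% to 42.324%. The median difference between strains was 16.0% to 18.6% with a strain left out. It was 15.6% without padding, 22.2% with 5 kb of padding and 10.4% with a match within 1 bin. In the wild-derived comparison the members with an unadjusted exact p under 0.05 numbered 1, and 2 both without padding and with 5 kb of padding; with strains left out they numbered 0 (without WSB/EiJ) to 1. The state 3 difference at Apoc3 reversed to -11.4 points within 500 bp. Centring state 1 on the median called 10073 genes higher in place of 5553. The cause of these changes was not tested. Depth is unknown, and a window of 29 bins changes by several points when 1 bin changes state. No paired analysis was possible because the mice of a strain are joined in 1 segmentation and the files carry no replicate number.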
